A study of Mus musculus with 12 samples.

Results

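The expression of 8 genes of sensory neuropeptide and neurotrophin signalling was described in mouse skin wounds. The genes were Calca and Calcb (calcitonin gene-related peptide), Tac1 (substance P), the receptor genes Tacr1, Calcrl and Ramp1, the neurotrophin gene Bdnf, and Mme (neprilysin). They were taken by symbol from the 55487 genes listed for each library. No cut-off on measured values was used, but earlier results of these data were known when the members were chosen. The 12 libraries came from cutaneous wounds on the backs of male C57BL/6JNarl mice, 6 weeks old. Wounds of the sham group received Pluronic F127 gel alone once daily, and the other wounds received 10 µM capsaicin (CAP) in the same gel. Both were sampled at day 3 and at day 6, which gave 4 groups of 3 libraries: sham day 3, CAP day 3, sham day 6 and CAP day 6. Each mouse carried 2 punch wounds, and whether libraries share a mouse was not given, so that every p measures the spread between libraries only. No unwounded skin was among the samples analysed here.

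Sensory nerve fibres in skin store neuropeptides in their endings and release them when the fibre is excited, and capsaicin excites such fibres through the channel TRPV1. Released CGRP acts on a receptor made of Calcrl and Ramp1, and substance P acts mainly on the NK1 receptor encoded by Tacr1. Both peptides are known for widening vessels in injured skin, and substance P also for making them leak. Neprilysin cuts substance P. The mRNA for peptides made by sensory neurons lies mostly in cell bodies in ganglia outside the skin, so that a wound library holds mainly the RNA of cells that reside in the tissue.

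Expression was given in TPM, a share of the transcripts of a library that divides by transcript length and so allows levels of different genes to be compared. A gene was tested where its mean reached 0.3 TPM in both groups compared. Differences were taken on the scale log2(TPM + 0.1) with limma, where 1 stands for 2-fold on that scale. To be past the threshold a gene had to differ 2-fold or more with p below 0.05 before adjustment. The adjusted p-values given are Benjamini-Hochberg values over all genes tested. The exact permutation test of 3 against 3 libraries was 2-sided and cannot give a p under 0.1.

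In each library between 18533 and 19325 genes reached 0.3 TPM, and libraries of the same group correlated at r = 0.963 to 0.986 over 16400 genes. CAP day 6 replicate 2 stood apart. It had the fewest genes at 0.3 TPM or more, and its 10 most abundant genes held 14.1% of the TPM, against 8.27% in the library with the lowest share. Its summed level of 8 keratinocyte markers was 99324 TPM, while the other 2 CAP day 6 libraries had 47215 and 65934 TPM. Krt1 (29718 TPM) and Krt10 (40801 TPM) made up most of its sum. It was also the highest CAP day 6 library for Krt5 (8736 TPM), Lor (7095 TPM) and Sfn (2205 TPM). Its levels of Krt14 (10563 TPM), Trp63 (138.6 TPM) and Dsg3 (67.7 TPM) lay between those of the other CAP day 6 libraries. All CAP day 6 libraries lay above the sham day 6 libraries in the keratinocyte sum (27548 to 31540 TPM). Of the 8 markers, 3 were past the threshold and higher with CAP at day 6 whichever library was left out (Krt1 by 1.86, Krt10 by 1.62 and Lor by 1.44). The differences of 7 markers were above 0, and that of 1 (Dsg3) was below 0. The part of keratinocytes in the day 6 differences was not tested. In CAP day 6 replicate 2 the summed level of 12 endothelial markers was 136.5 TPM, against 340.5 and 372.0 TPM in the other CAP day 6 libraries. Results that rest on this library are given with and without it. All genes tested had a median difference of -0.12 between CAP and sham at day 6, which became -0.01 with median-ratio scaling, and the 268 higher and 429 lower genes past the threshold became 399 and 287.

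The 18 markers of sensory neurons and axons were low. Of these, 10 stayed under 0.3 TPM in all 12 libraries, among them Trpv1 (0 to 0.211 TPM), Trpa1 and the sodium channel genes Scn9a, Scn10a and Scn11a. Scn10a was listed at 0 in every library. Their summed level, from 40.1 to 56.3 TPM at day 3 and from 23.8 to 30.4 TPM at day 6, included Tubb3, Uchl1 and Gap43, which other cells also express. In sham wounds 4 of the 5 neuron markers tested were below 0 at day 6 against day 3. Of these, 2 were past the threshold (Gap43 by -1.04 and Tubb3 by -1.11). Gap43 was not past the threshold without sham day 3 replicate 2 or replicate 3, and Tubb3 was not without sham day 6 replicate 1. With CAP at day 3, all 6 neuron markers tested were below 0 (median -0.51), with 0 past the threshold by limma (1 without CAP day 3 replicate 3). Uchl1 was lower with CAP at day 6 (-1.15, not past the threshold with a pseudocount of 1 TPM or without CAP day 6 replicate 2) and at day 6 against day 3 in CAP-treated wounds (-1.43).

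Calca and Calcb encode the α and β forms of CGRP from separate genes on chromosome 7 (build GRCm38). Calca (ENSMUSG00000030669) lies at chr7:114631478-114636357 on the minus strand, and Calcb (ENSMUSG00000030666) at chr7:114718643-114723365 on the plus strand. The coding segments below are shown because assigning reads to Calca or to Calcb depends on the bases at which they differ. Each lies within exon 4 of 5 of a transcript and spans part of the CGRP-coding sequence. The sequences are from the GENCODE M21 transcripts, written 5′ to 3′, with capitals at the 4 bases that differ. The Calca segment lies at chr7:114632491-114632599 and the Calcb segment at chr7:114721975-114722083, and 105 bases (96.3%) are identical.
Calca: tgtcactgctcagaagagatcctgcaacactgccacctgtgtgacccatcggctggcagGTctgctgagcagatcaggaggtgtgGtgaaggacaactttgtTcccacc
Calcb: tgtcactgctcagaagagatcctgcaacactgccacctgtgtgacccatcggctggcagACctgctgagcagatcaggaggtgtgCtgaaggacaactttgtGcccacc
Over all their transcripts, 33 of the 1678 stretches of 31 bases in Calca (1.97%) and 33 of the 1260 in Calcb (2.62%) were present in both genes. Reads that fall wholly within those stretches cannot be told apart by sequence, and how they were assigned was not given in the sources used here. The other stretches are not shared between the pair.

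Of the CGRP genes, Calcb carried nearly all of the signal. Calca was above 0 in 6 of the 12 libraries and never reached 0.3 TPM. It was at 0.116, 0.257 and 0 TPM in sham day 3 libraries (replicates 1 to 3, the order used throughout), and at 0, 0.103 and 0 TPM in CAP day 3 libraries. At day 6 it was at 0.143, 0 and 0.288 TPM in sham wounds and at 0, 0 and 0.233 TPM in CAP-treated wounds. Every group thus held at least 1 library at 0, and all neighbouring groups overlapped. The gene was under the filter in all comparisons. Calca also encodes calcitonin by alternative splicing, which a value per gene does not separate.

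Calcb was at 8.01, 17.7 and 16.1 TPM in sham day 3 libraries, and at 16.4, 10.6 and 11.6 TPM in CAP day 3 libraries. At day 6 it was at 22.6, 24.0 and 9.51 TPM in sham wounds and at 11.3, 15.0 and 13.7 TPM in CAP-treated wounds. It ranked between the 42nd and the 65.2nd percentile of the genes at 0.3 TPM or more, and made up 97.1% or more of the summed Calca and Calcb TPM. Mean levels rose in the order CAP day 3 (12.9 ± 3.11 TPM, SD, n = 3), CAP day 6 (13.3 ± 1.88), sham day 3 (13.9 ± 5.18) and sham day 6 (18.7 ± 7.97), and all neighbours in this order overlapped. Sham day 6 held the 2 highest values of the series and, in replicate 3, the second lowest. The difference between CAP and sham wounds was -0.06 at day 3 (95% confidence interval -0.83 to 0.71, limma adjusted p = 0.996) and -0.38 at day 6 (-1.21 to 0.45, adjusted p = 0.56). Between day 6 and day 3 it was 0.39 in sham wounds (-0.61 to 1.38) and 0.07 in CAP-treated wounds (-0.41 to 0.55). Leaving out each library moved the day 6 CAP difference between -0.81 and -0.15, and the difference between the sham days between 0.03 and 0.81. These intervals leave room for a change of about 2-fold in 2 of the comparisons.

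**Figure D1:**
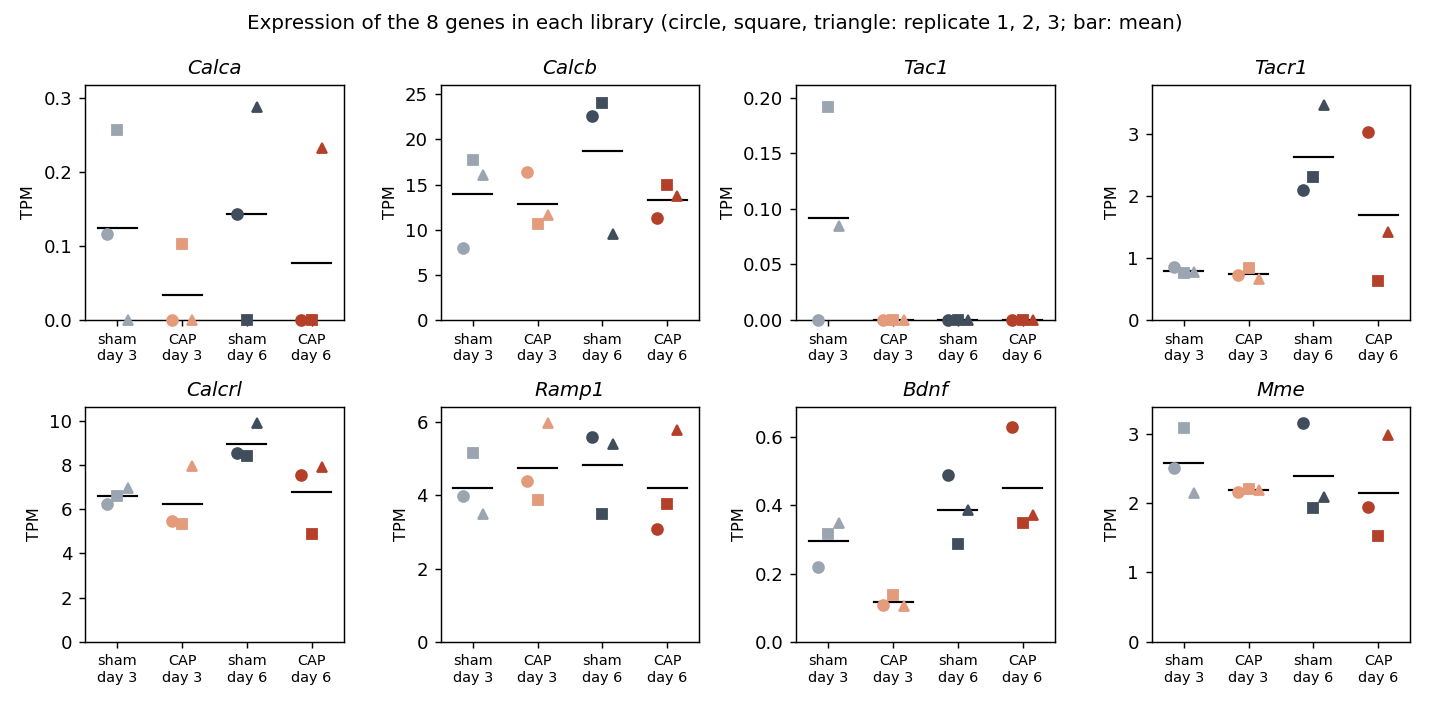
TPM of the 8 genes in each library, by group, with replicate 1 as a circle, 2 as a square and 3 as a triangle, a bar at the group mean, and an own axis from 0 for each gene. Tacr1 lies between 0.661 and 0.853 TPM at day 3 and reaches 2.1 to 3.47 TPM in sham wounds at day 6, Bdnf is lowest in CAP-treated wounds at day 3, and Calca and Tac1 are at 0 in many libraries.

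Among 14406 protein-coding genes compared across the 12 libraries, the one whose pattern was most like that of Calcb was Cd207. This gene encodes langerin, a lectin that marks Langerhans cells of the epidermis. Its r with Calcb was 0.95 on the log2 scale over 12 libraries and 0.95 for deviations from the group means, and 0.95 without CAP day 6 replicate 2. Spearman's rho was 0.95, and r was 0.89 without the 2 libraries farthest from the median of Cd207. The next genes were Polr1b (r = 0.87) and Yars (r = 0.86), which encode a subunit of RNA polymerase I and a tRNA synthetase. Cd207 was at 10.4, 17.6 and 23.8 TPM in sham day 3 libraries and at 25.8, 14.1 and 14.3 TPM in CAP day 3 libraries. At day 6 it was at 30.8, 31.7 and 10.8 TPM in sham wounds and at 15.3, 18.0 and 16.2 TPM in CAP-treated wounds. The sham day 6 libraries that were highest for Calcb were thus also highest for Cd207, and sham day 3 replicate 1 was lowest for both. Since the gene was picked as the highest of 14406, no p is given, and the libraries share tissue makeup and the TPM scale.

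**Figure D2:**
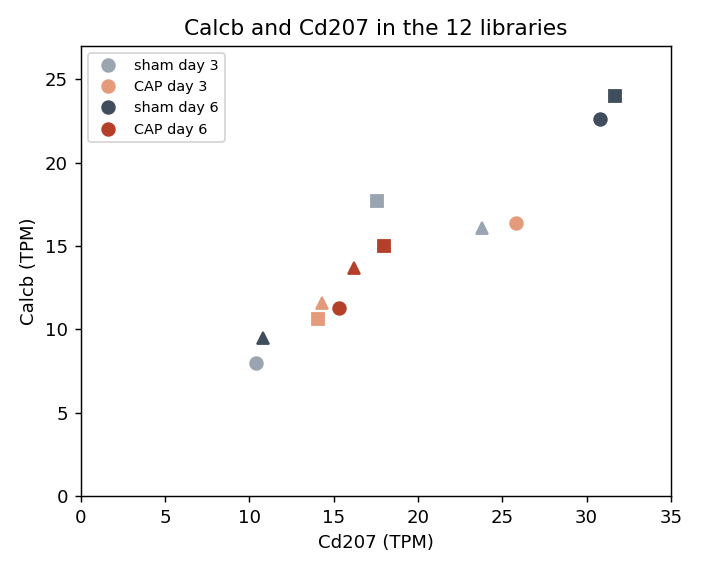
Calcb (vertical axis, TPM) against Cd207 (horizontal axis, TPM), 1 point per library, coloured by group, with replicate 1 as a circle, 2 as a square and 3 as a triangle. The points run from sham day 3 replicate 1 (10.4 and 8.01 TPM) to sham day 6 replicate 2 (31.7 and 24.0 TPM), and the groups are mixed along that line.

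Tac1 encodes the precursor of substance P and neurokinin A (ENSMUSG00000061762, chr6:7554879-7565834, plus strand). It was above 0 in 2 of the 12 libraries, both of sham wounds at day 3 (0, 0.192 and 0.0845 TPM). It was listed at 0 in the 3 CAP day 3, 3 sham day 6 and 3 CAP day 6 libraries. Since sham day 3 replicate 1 was also at 0, no groups were separated. TPM keeps no count of reads, so that no lower limit of detection could be put on these zeros, and no fold change is given.

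Tacr1 encodes the NK1 receptor, a receptor for substance P (ENSMUSG00000030043, chr6:82402334-82560104, plus strand), and was higher at day 6 than at day 3 in sham wounds. It was at 0.853, 0.751 and 0.767 TPM in sham day 3 libraries and at 2.1, 2.30 and 3.47 TPM in sham day 6 libraries, and these groups did not overlap. The difference was 1.58 ± 0.26 (SE, n = 3 in each group, 95% confidence interval 0.96 to 2.2), or 2.99-fold on the log2(TPM + 0.1) scale (limma unadjusted p = 4.90e-04, adjusted p = 0.0336, exact permutation p = 0.1). It lay between 1.37 and 1.72 when each library was left out in turn. With a pseudocount of 1 TPM it was 1.0, just short of the 2-fold threshold. Without the expression filter it was past the threshold, but the limma adjusted p was 0.0921. In the joint fit of all 12 libraries 0 genes had an adjusted p under 0.05 in this comparison, against 420 in the main fit. The rise was the one call among the 5 members tested in this comparison (1 of 5, against 3.75% of the 18368 genes tested), and the members' median difference was 0.39 against 0.00 for all genes.

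In CAP-treated wounds Tacr1 was at 0.726, 0.834 and 0.661 TPM at day 3 and at 3.03, 0.630 and 1.42 TPM at day 6. The CAP day 6 libraries spread widely, with replicate 2 the lowest of all 12 and replicate 1 within the range of sham day 6. The difference between the days was 0.85 ± 0.53 (-0.40 to 2.11, limma adjusted p = 0.56). Without CAP day 6 replicate 2 it was 1.38 and past the threshold (unadjusted p = 0.0134). Between CAP and sham wounds the difference was -0.09 ± 0.27 at day 3 (-0.72 to 0.55, adjusted p = 0.996) and -0.81 ± 0.52 at day 6 (-2.06 to 0.43, adjusted p = 0.408). The day 6 value ranged from -0.29 without CAP day 6 replicate 2 to -1.34, past the threshold, without CAP day 6 replicate 1 (unadjusted p = 0.0192). The change of the CAP effect from day 3 to day 6 was -0.73 ± 0.61 (-2.07 to 0.61, adjusted p = 0.634), -0.20 without replicate 2 and -1.25, past the threshold, without replicate 1. So a rise of Tacr1 with time passed the test in sham wounds and not in CAP-treated wounds, but the test of the difference did not separate them.

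Calcrl encodes the receptor that forms the CGRP receptor with Ramp1 and adrenomedullin receptors with Ramp2 or Ramp3 (ENSMUSG00000059588, chr2:84330626-84425411, minus strand). It was at 6.25, 6.59 and 6.98 TPM in sham day 3 libraries and at 8.52, 8.42 and 9.88 TPM in sham day 6 libraries. All sham day 6 values lay above all sham day 3 values, and the difference was 0.43 ± 0.12 (0.14 to 0.72, limma unadjusted p = 0.0103, adjusted p = 0.149, exact permutation p = 0.1). This was under 2-fold and so not past the threshold. Of the 5 members tested, Tacr1 and Calcrl (2 of 5) had sham day 6 values that did not overlap with day 3, against 21.4% of all genes tested.

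In CAP-treated wounds Calcrl was at 5.46, 5.31 and 7.94 TPM at day 3 and at 7.55, 4.87 and 7.91 TPM at day 6. The day 3 values overlapped with those of sham wounds (-0.10 ± 0.18, -0.54 to 0.33, adjusted p = 0.983). At day 6 all CAP values lay below all sham values, with a difference of -0.42 ± 0.21 (-0.93 to 0.08, adjusted p = 0.313, exact permutation p = 0.1). Without CAP day 6 replicate 2 the difference was -0.20. Calcrl was the one member of the 6 tested whose day 6 groups did not overlap, against 26% of all genes. Between the days in CAP-treated wounds the difference was 0.11 ± 0.25 (-0.49 to 0.72).

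Endothelial cell markers varied between libraries much as Tacr1 did, and less closely as Calcrl did. Over the 12 libraries, r with their summed level was 0.92 for Tacr1 (rho 0.90) and 0.78 for Calcrl (rho 0.71), and 0.88 and 0.63 without the 2 libraries farthest from the median sum. The libraries fall into groups that differ in both measures, and no p is given. In CAP-treated wounds at day 3, the library with the lowest sum (replicate 3) had the highest Calcrl. All 12 listed markers passed the filter in every comparison, and their summed level was 180.2 to 244.2 TPM in sham day 3, 170.7 to 248.3 in CAP day 3 and 428.5 to 583.5 in sham day 6 libraries. In CAP day 6 libraries it was 372.0, 136.5 and 340.5 TPM, and the library with the lowest sum also had the lowest Tacr1 and the lowest Calcrl. In sham wounds all 12 markers were above 0 at day 6 against day 3 (median difference 1.29). Of these, 9 were past the threshold, among them Pecam1 (CD31) by 1.41 and Cdh5 (VE-cadherin) by 1.55. The count was 8 to 11 when each library was left out. Between CAP and sham wounds at day 6, all 12 were below 0 (median -1.0), and 5 were past the threshold. The count past the threshold was 0 without CAP day 6 replicate 2 or without sham day 6 replicate 3, and 1 with median-ratio scaling. Leaving out the other libraries gave 1 (sham day 6 replicate 1), 2 (sham day 6 replicate 2), 10 (CAP day 6 replicate 1) and 9 (CAP day 6 replicate 3). Of 8 smooth muscle and pericyte markers, 5 rose past the threshold from day 3 to day 6 in sham wounds (median of the 8 markers 1.23), among them Rgs5 by 1.45 and Tagln by 1.47. The count was 3 without sham day 6 replicate 3. The differences of 2 of the 8 lay below 0, namely Des (mean 359.4 TPM at day 3 and 221.1 TPM at day 6) and Kcnj8 (7.41 and 6.62 TPM). The 8 markers summed to 516.3 to 582.7 TPM in sham day 3, 303.9 to 710.3 in CAP day 3, 597.4 to 757.8 in sham day 6 and 267.4 to 445.0 in CAP day 6 libraries. Des made up much of the day 3 sums, at 375.0 of 573.4 TPM in sham day 3 replicate 1 and 502.6 of 710.3 TPM in CAP day 3 replicate 1. In CAP day 3 libraries it was at 502.6, 273.5 and 159.1 TPM, the same order as the skeletal muscle marker Acta1 (3041, 1784 and 1068 TPM). The part of skeletal muscle in these sums was not tested. With CAP at day 6, 2 of the 8 fell past the threshold (Acta2 by -1.53 and Tagln by -1.32), while 2 lay above 0 (Notch3 and Kcnj8). The count of those that fell past the threshold was 0 without CAP day 6 replicate 2 and 1 without sham day 6 replicate 2 or 3. It was 3 when any one of the other libraries was left out. The part of endothelial, smooth muscle and pericyte cells in the values of Tacr1 and Calcrl was not tested. In bulk tissue, fewer cells of a type and less RNA per cell cannot be told apart.

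**Figure D3:**
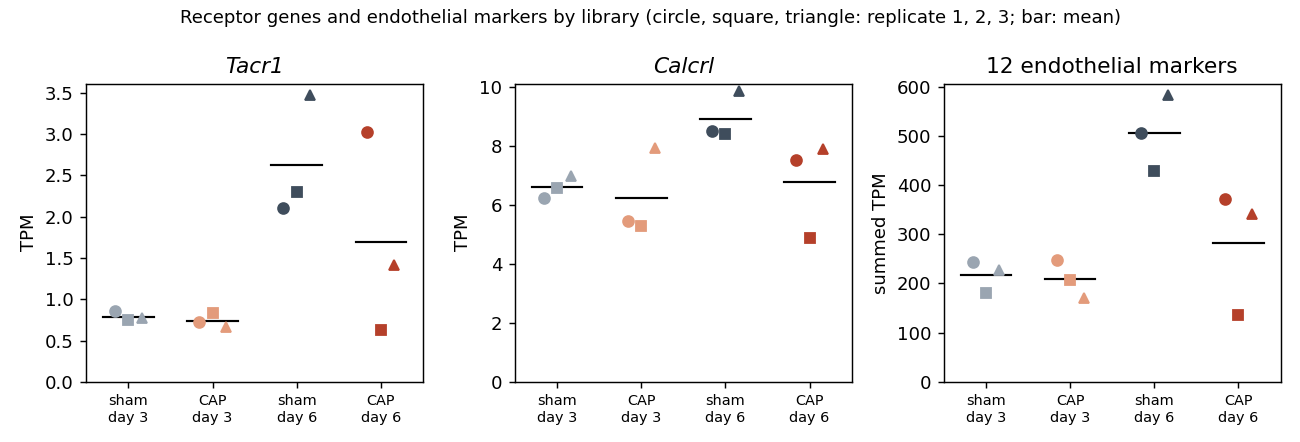
Tacr1 and Calcrl (TPM) and the summed TPM of 12 endothelial markers in each library, by group, with replicate 1 as a circle, 2 as a square and 3 as a triangle and a bar at the mean. In all panels sham wounds at day 6 are highest on average, and CAP day 6 replicate 2 (0.63 TPM, 4.87 TPM and 136.5 TPM) is the lowest of the 12 libraries.

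The genes whose pattern was most like that of Tacr1 were Tmem204 (r = 0.97 over 12 libraries, 0.90 within groups), Spry4 (0.96 and 0.89) and Tal1 (0.96 and 0.89). Tal1 encodes a transcription factor of blood and endothelial cells, and Spry4 an inhibitor of receptor tyrosine kinase signalling. Tmem204 was at 3.26, 3.63 and 2.87 TPM in sham day 3 and at 7.51, 6.53 and 8.39 TPM in sham day 6 libraries. In CAP day 6 libraries it was at 7.90, 2.53 and 5.45 TPM, the same order of replicates as for Tacr1. For Calcrl the most similar genes were Hsbp1 (r = 0.94), Tbc1d30 (0.94) and Zfp984 (0.93).

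Ramp1 gives Calcrl its affinity for CGRP (ENSMUSG00000034353, chr1:91179822-91225196, plus strand), and its level was similar in all groups. It was at 3.99, 5.15 and 3.49 TPM in sham day 3 libraries and at 4.39, 3.87 and 5.97 TPM in CAP day 3 libraries. At day 6 it was at 5.58, 3.48 and 5.39 TPM in sham wounds and at 3.09, 3.76 and 5.78 TPM in CAP-treated wounds. Group means lay between 4.21 and 4.82 TPM, with SDs of 0.849 to 1.40 TPM, and all neighbouring groups overlapped. The largest of the 4 differences between groups, in absolute value, was that of CAP against sham at day 6, at -0.21 ± 0.29 (-0.90 to 0.49, limma adjusted p = 0.718).

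Among the RAMP genes, Ramp2 was the most abundant in every library. It held 73.2% to 88.2% of the summed Ramp1, Ramp2 and Ramp3 TPM, and Ramp1 held 5.45% to 15.8%. The Ramp1 level was 41% to 80.4% of the Calcrl level. Ramp2 was at 25.2 to 56.5 TPM and Ramp3 at 3.17 to 6.19 TPM, and neither was past the threshold in any comparison. The genes most like Ramp1 over the libraries were Fuom (r = 0.88), Pigyl (0.86) and Trappc2 (0.84).

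Bdnf encodes brain-derived neurotrophic factor, a survival and growth factor for neurons (ENSMUSG00000048482, chr2:109674700-109727007, plus strand). An antisense gene, Gm45346, overlaps it and was listed at 0 in all 12 libraries. Bdnf was near the filter, and reached 0.3 TPM in 7 of the 12 libraries. In sham day 3 libraries it was at 0.219, 0.315 and 0.348 TPM (mean 0.294 ± 0.0669, just under the filter) and in CAP day 3 libraries at 0.108, 0.136 and 0.106 TPM (0.117 ± 0.0166). At day 6 it was at 0.489, 0.286 and 0.386 TPM in sham wounds and at 0.630, 0.348 and 0.373 TPM in CAP-treated wounds. All CAP day 3 values lay below the lowest value of every other group, and the other 3 groups overlapped in the order of their means.

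At day 3 the Bdnf difference between CAP and sham wounds was -0.85, with no overlap (exact permutation p = 0.1). Among genes under the filter with a value above 0, 6.6% did not overlap. When all genes were fitted without the filter, its interval was -1.49 to -0.21 (limma unadjusted p = 0.0178, adjusted p = 0.806). From day 3 to day 6 in CAP-treated wounds the difference was 1.31, again with no overlap (7.24% of genes under the filter), and 0.55 to 2.08 without the filter (unadjusted p = 0.0057, adjusted p = 0.392). Without the filter this was past the threshold, as were 2.85% of 29535 genes. In sham wounds it was 0.30 (-0.50 to 1.09 without the filter). At day 6 Bdnf passed the filter, and CAP and sham wounds differed by 0.16 ± 0.40 (-0.78 to 1.11, adjusted p = 0.847). For the change of the CAP effect, Bdnf entered the test through its day 6 means only, since both day 3 means were under 0.3 TPM. The result therefore rests in part on day 3 values under the filter. The CAP effect at day 6 exceeded that at day 3 by 1.01 ± 0.49 (-0.06 to 2.08, limma unadjusted p = 0.0611, adjusted p = 0.448), which was not past the threshold. It was past the threshold with median-ratio scaling (1.06) and without sham day 3 replicate 1 (1.16). Without the filter it was also past the threshold (unadjusted p = 0.0331, against 3.8% of 31752 genes). That last call was lost without sham day 3 replicate 2 or 3, CAP day 3 replicate 1 or 3, sham day 6 replicate 2 or 3, or CAP day 6 replicate 1 (0.79 to 1.02). No comparison of Bdnf held after adjustment over all genes.

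Mme encodes neprilysin, a membrane peptidase that degrades substance P and other peptides (ENSMUSG00000027820, chr3:63241537-63386030, plus strand). It was at 2.51, 3.09 and 2.14 TPM in sham day 3 libraries and at 2.16, 2.21 and 2.19 TPM in CAP day 3 libraries. At day 6 it was at 3.15, 1.93 and 2.09 TPM in sham wounds and at 1.94, 1.53 and 2.98 TPM in CAP-treated wounds. Group means lay between 2.15 and 2.58 TPM, and all neighbouring groups overlapped. CAP and sham wounds differed by -0.22 ± 0.20 at day 3 (-0.69 to 0.25, limma adjusted p = 0.916) and by -0.17 ± 0.32 at day 6 (-0.92 to 0.59, adjusted p = 0.797), so that a change of 2-fold lay outside both intervals. The genes most like Mme were Afmid (r = 0.90), Gm38394 (0.89) and Bcl9 (0.88).

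Group ranges of the tested members overlapped in all 5 at day 3, where 11.6% of all genes did not overlap, and in all 5 between the days in CAP-treated wounds, where 17.7% did not. Capsaicin against gel alone gave no member past the threshold on either day. By limma it was 0 of 5 at day 3 (1.58% of 18330 genes) and 0 of 6 at day 6 (3.8% of 18323 genes), and 0 members had an unadjusted p under 0.05 in either. The median difference of the members was -0.09 at day 3, against -0.05 for all genes, and -0.29 at day 6, against -0.12. For day 6 against day 3 in CAP-treated wounds, 0 of 5 passed (2.79% of 18202 genes), 0 of them at an unadjusted p under 0.05, with a median of 0.07 against -0.05. For the change of the CAP effect, 0 of 6 passed (4.9% of 20267 genes), again 0 at an unadjusted p under 0.05. Bdnf was among these 6 through its day 6 means only. The comparisons share libraries, so that they are not independent of each other.

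**Figure D4:**
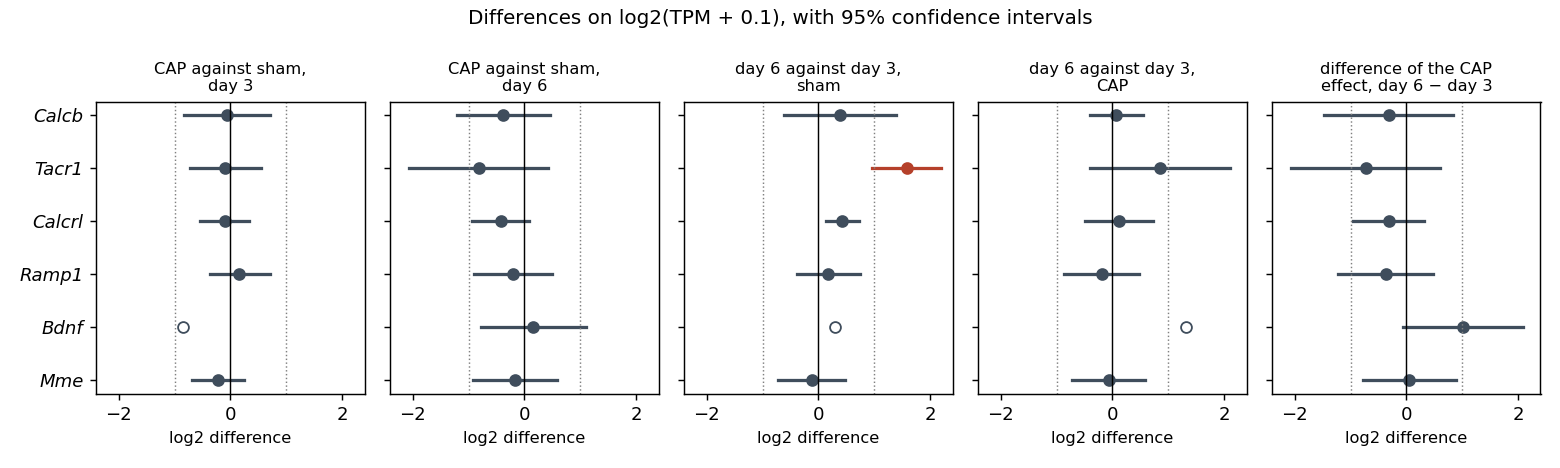
Differences on log2(TPM + 0.1) for 6 genes in 5 comparisons, with 95% confidence intervals from limma, open circles for values under the expression filter (no interval) and dotted lines at 2-fold. Tacr1 in sham wounds, at 1.58, is the one tested value past the threshold (red), and the intervals of the other tested values reach 0 except that of Calcrl in the same comparison (0.14 to 0.72).

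The related genes were read from lists by family. Of 7 genes of the CGRP and adrenomedullin family beside the members, 5 were tested and Adm passed the threshold. Adm encodes adrenomedullin, a vessel-widening peptide that signals through Calcrl. It was at 38.7, 12.7 and 25.7 TPM in sham day 3 libraries and at 101.2, 67.0 and 92.8 TPM in sham day 6 libraries, a rise of 1.87 ± 0.38 (limma adjusted p = 0.0566). In CAP day 6 libraries it was at 43.0, 19.3 and 65.8 TPM, below all sham day 6 values, with a difference of -1.17 ± 0.42 (adjusted p = 0.23). That difference was not past the threshold without CAP day 6 replicate 2, without sham day 6 replicate 1 or without sham day 6 replicate 3. Iapp was listed at 0 in every library.

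Of 6 tachykinin genes and mast cell receptors for substance P, Mrgprb2 was tested in every comparison and Tacr3 in 1. Mrgprb2 was at 1.28, 0.986 and 2.27 TPM in sham day 6 libraries and at 2.85, 4.39 and 2.41 TPM in CAP day 6 libraries, a difference of 1.08 ± 0.37 (adjusted p = 0.226). The call was lost in 5 of 11 alternatives, namely a pseudocount of 1 TPM, the replicate number as a block, and leaving out CAP day 6 replicate 2, sham day 6 replicate 1 or sham day 6 replicate 2. The 8 mast cell markers summed to 165.1 to 251.8 TPM in sham day 6 and to 136.3 to 187.8 TPM in CAP day 6 libraries, with a median difference of -0.20. Among them only Hdc was past the threshold (-1.69), at 51.2, 65.2 and 28.3 TPM in sham and 12.3, 5.92 and 38.2 TPM in CAP day 6 libraries. That call was lost without replicate 1 or 2 of either day 6 group. Hdc made up 65.2 of the 165.1 TPM summed in sham day 6 replicate 2, so that the ranges of the sum rest in part on this gene. In the same comparison the differences of all 8 neutrophil markers lay below 0 (median -1.26). The part of mast cells in the Mrgprb2 values, and of neutrophils in the Hdc values, was not tested.

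Of 31 other neuropeptide and receptor genes, 8 were listed at 0 in every library (Vip, Sst, Sstr1, Sstr3, Galr1, Grp, Oprm1 and Oprk1), and 16 stayed under 0.3 TPM throughout. Gal, the gene of galanin, was at 4.14, 4.51 and 3.97 TPM in sham day 3 libraries and fell to 0.316, 0.635 and 0.656 TPM by day 6 (-2.81 ± 0.29, limma adjusted p = 0.0132). It was lower in CAP-treated than in sham wounds at day 3, at 2.27, 1.01 and 1.51 TPM (-1.41 ± 0.29, adjusted p = 0.5). Npy, the gene of neuropeptide Y, a peptide of sympathetic nerves, was higher in CAP-treated wounds at day 3. It was at 4.22, 3.34 and 10.6 TPM against 0.740, 1.40 and 1.18 TPM in sham wounds (2.21 ± 0.46, adjusted p = 0.5). At day 6 its values were 1.62, 4.37 and 3.94 TPM in sham and 0.684, 2.57 and 4.24 TPM in CAP-treated wounds. The change of its CAP effect was -2.80 ± 0.89 (adjusted p = 0.428), past the threshold in all 16 alternatives, and Npy rose in sham wounds from day 3 to day 6 (1.42 ± 0.42, adjusted p = 0.154), though not past the threshold with a pseudocount of 1 TPM. Adcyap1r1, the PACAP receptor gene, also rose in sham wounds (1.05 ± 0.23), but not past the threshold with a pseudocount of 1 TPM, without sham day 3 replicate 2 or without sham day 6 replicate 3. Of the 10 genes of this list tested at day 3, 1 was past the threshold as higher with CAP and 1 as lower.

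Of 16 peptide-degrading and processing enzymes beside Mme, 14 were tested. Ece2, an endothelin-converting enzyme, was lower at day 6 with CAP (-1.73 ± 0.59, limma adjusted p = 0.226), but not past the threshold with a pseudocount of 1 TPM, without sham day 6 replicate 1 or without sham day 6 replicate 3. Dpp4, which trims neuropeptide Y and other peptides, was at 26.8, 21 and 31.9 TPM in CAP-treated and at 38.9, 45.1 and 45.4 TPM in sham wounds at day 3. At day 6 the order was turned (39.6, 54.4 and 38.7 against 31.8, 20.7 and 28.8 TPM), and the change of the CAP effect was 1.42 ± 0.28 (unadjusted p = 3.35e-04, adjusted p = 0.428). Ace, an enzyme that can cut substance P, rose from day 3 to day 6 in sham (1.08 ± 0.23) and in CAP-treated wounds (1.28 ± 0.20). The sham rise was not past the threshold without sham day 3 replicate 1 or without sham day 6 replicate 3.

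Of 16 neurotrophin and GDNF family genes and receptors, 12 to 15 were tested in a comparison. Artn, which encodes the growth factor artemin, was at 3.18, 2.36 and 3.38 TPM in sham day 3 libraries and at 0.872, 1.02 and 0.280 TPM in sham day 6 libraries (-2.03 ± 0.44, limma adjusted p = 0.0671). In CAP day 3 libraries it was at 1.19, 1.72 and 0.288 TPM (-1.65 ± 0.56 against sham, adjusted p = 0.692), a call that was lost without sham day 3 replicate 1, sham day 3 replicate 3 or CAP day 3 replicate 3. Ntrk2, the gene of the BDNF receptor TrkB, was at 3.32, 3.81 and 3.59 TPM at day 3 and at 8.59, 7.39 and 6.28 TPM at day 6 in CAP-treated wounds (1.02 ± 0.17, adjusted p = 0.25). The call was lost with a pseudocount of 1 TPM and without CAP day 3 replicate 1 or CAP day 6 replicate 1. Gfra1, a GDNF receptor gene, was lower with CAP at day 6 (-1.11 ± 0.37), though not with median-ratio scaling, with a pseudocount of 1 TPM, without sham day 6 replicate 1 or without CAP day 6 replicate 2. The change of its CAP effect was -1.36 ± 0.58, and was past the threshold in 9 of 16 alternatives. Summed levels of 10 Schwann cell markers, cells that also make such factors, were 376.1 to 397.8 TPM in sham and 254.4 to 430.1 TPM in CAP-treated wounds at day 3. At day 6 they were 420.8 to 539.7 TPM in sham and 334.8 to 402.9 TPM in CAP-treated wounds, and their part in these values was not tested.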

How the data were processed

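The authors sequenced SureSelect XT HS2 mRNA libraries of 12 wounds and deposited TPM for 55487 genes per library. Their processing notes and methods name bcl2fastq, Trimmomatic 0.36, StringTie and build mm10. The aligner and strand setting were not given in the sources used here. In the deposited TPM 0.0001 stands for 0. Read depth is not kept by TPM and is unknown, so errors reflect only how the 3 libraries of a group differ.

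From these values, log2(TPM + 0.1) was fitted with limma 3.58.1 (R 4.3.3, trend, not robust) on all genes averaging 0.3 TPM or more in both groups compared, or in at least 1 of the 4 groups for the change of the CAP effect (12 libraries). The procedure was tested on simulated data. Members, lists and tests were chosen with earlier results of these data known, as were the alternatives. All 8 members are named, as are up to 4 genes of each list past the threshold by smallest p. The 3 genes most like a member by Pearson r are named for members averaging 0.3 TPM or more in all 4 groups. Alternatives were a pseudocount of 1 TPM, no filter, 1 joint fit, median-ratio scaling, the replicate number as a block, and leaving out each library. For Bdnf, leaving out libraries without the filter was added after seeing the data, as were the alternatives for list genes. A gene of the neurotrophin list and a gene of the enzyme list are not reported here. Marker lists of 11 cell types were summed, and those of neurons, Schwann cells, endothelium, smooth muscle, mast cells and keratinocytes are given. Of the neutrophil list only the CAP differences at day 6 are given. Python 3.11.15, numpy 2.4.6 and pandas 2.3.3 were used. Shared sequence was counted over GENCODE M21 transcripts.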

Additional observations from a re-analysis of the deposited data

How the results depend on the processing

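The number of members past the threshold was 0 of 6 for CAP against sham at day 6, 1 of 5 for day 6 against day 3 in sham wounds, 0 of 5 for the same in CAP-treated wounds and 0 of 6 for the change of the CAP effect. With a pseudocount of 1 TPM the sham count fell to 0, since Tacr1 came to 1.0. With no expression filter the last 2 counts became 1 (Bdnf), and with median-ratio scaling the last became 1 (Bdnf). Leaving out each library gave 0 to 1 in the comparisons with CAP at day 6, between the days in CAP-treated wounds and of the CAP effect. The joint fit of 12 libraries changed no count, but left 0 genes at a limma adjusted p under 0.05 between the sham days. Same-numbered libraries had correlated deviations of r = -0.18 to 0.40, which did not meet the bar for pairing (over 0.1 in every pair) in any comparison, and the fit with the replicate number as a block left the counts at 0, 0, 1, 0 and 0 in the 5 comparisons. At day 6 and between the sham days each library correlated best with its own number (r up to 0.13), which was not so at day 3 or between the CAP days.

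Over all genes, 290, 697, 688, 507 and 994 genes were past the threshold in the 5 comparisons (CAP at day 3, CAP at day 6, days in sham, days in CAP, change of the CAP effect). With a pseudocount of 1 TPM they were 154, 385, 405, 299 and 580, and with no filter 568, 1028, 1156, 842 and 1207. Leaving out 1 library gave 204 to 510, 311 to 1483, 641 to 873, 382 to 886 and 657 to 1777.

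The sign of some small differences turned when 1 library was left out, and the causes were not tested. For CAP against sham at day 3, Calcb ranged from -0.41 to 0.15 and Ramp1 from -0.01 to 0.31. At day 6, Bdnf ranged from -0.06 to 0.31 and Mme from -0.42 to 0.04. Between the days, Mme ranged from -0.33 to 0.01 in sham and from -0.32 to 0.14 in CAP-treated wounds, where Calcb ranged from -0.06 to 0.25 and Calcrl from -0.01 to 0.33. For the change of the CAP effect, Calcb ranged from -0.75 to 0.03 and Mme from -0.20 to 0.26. Precision is limited to the spread of 3 libraries per group, and zeros in TPM carry no detection limit.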
